A study of Homo sapiens with 8 samples.

Results

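The zinc finger genes named ZNF with a number, and placed on chromosome 19 by the annotation of the promoter arrays, were examined for SMAD3 occupancy in the A549 cell line, which was established from a human lung carcinoma of alveolar epithelial type. A gene belonged to the set when at least 1 of its probes lay on chromosome 19 and its symbol was ZNF followed by digits and at most 1 letter. This gave 184 of the 17133 genes on the arrays, with 3272 probes and a median of 18 probes per gene against 26 over all genes. The rule uses names and places alone.

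All cells were starved of serum. The basal group received no cytokine, and the TGFβ1 group received 2 ng/ml TGFβ1 for up to 2 h. Elsewhere the text of the study names a shorter exposure and more array replicates than were analysed here, so the exact time is not settled. Each group had 2 biological replicates, and each replicate was hybridised to both slides of a promoter array design, so 8 arrays were available. On each array the chromatin precipitated with a SMAD3 antibody (Cy5) competed with a mock precipitation with an anti-flag antibody (Cy3), after amplification by ligation-mediated PCR. Every probe of the chromosome 19 ZNF genes lay on slide 2. The cells are 1 line, each array carried its own mock precipitation, and no dye-swapped array was analysed.

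SMAD3 is a receptor-activated transcription factor. After TGFβ1 binds its receptors, SMAD3 is phosphorylated, joins SMAD4 and enters the nucleus, where the complex contacts short DNA elements such as CAGAC and GC-rich variants of GGCGC. Chromosome 19 carries large clusters of genes for C2H2 zinc finger proteins that arose by repeated duplication. Most of these proteins hold a KRAB domain, which recruits the corepressor TRIM28 and, through it, the histone methyltransferase SETDB1 and HP1 proteins, and many silence retroelements. Several members of the set, among them ZNF146 and ZNF580, lack a KRAB domain.

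The measure was the log2 ratio of the SMAD3 IP signal over the mock signal, centred on the median of each array, so a value of 0 is the middle of the array and not an absolute absence of binding. A promoter value is the mean over the probes that lie at most 2000 bp upstream or 800 bp downstream of the transcription start. Of the 184 ZNF genes, 144 had at least 4 probes there and were tested, 25 had 1 to 3 probes and 15 had none. Of 1310 ZNF probes in this window, 17.9% were not well above background in either channel on any array, against 19.8% over all genes, and such probes had a median ratio between 0.03 and 0.09. The software fills in a surrogate for such a signal, so a ratio near 0 can stand for a dark probe. Probes well above background in both channels on every array made up 46.6% for the ZNF genes and 46.8% over all genes. Of the 184 genes, 30 share at least 1 probe with another gene, 16 of them with another ZNF gene of the set, and the signals of such pairs cannot be separated fully. Near-identical paralogues can also cross-hybridise. The files hold no probe sequences, so this was not tested.

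The promoters of the ZNF genes had somewhat low ratios in both conditions. Basal replicates 1 and 2 had medians of -0.37 and -0.42, and TGFβ1 replicates 1 and 2 of -0.39 and -0.37. Over all genes the medians were -0.10, -0.16, -0.16 and -0.21, and over all genes on the same slide -0.17, -0.19, -0.28 and -0.25. The other genes on chromosome 19 had medians of -0.35, -0.38, -0.49 and -0.48, while ZNF genes on other chromosomes, most of which are on the other slide, had medians of -0.08, -0.18, -0.08 and -0.14. The ZNF genes of chromosome 19 were thus nearer to their neighbours on the chromosome than to ZNF genes elsewhere, in every replicate. These are descriptions without a test. Single promoters ranged widely, between -4.01 and 3.59 without TGFβ1 and between -4.25 and 1.66 with it, and the mean was below 0 for 102 and 109 of the 144 genes.

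By distance, ratios of the ZNF probes rose little or not at all from the upstream flank to the start, unlike those of the other groups. Within 250 bp of the start the mean ratio of 402 ZNF probes was -0.37, -0.32, -0.59 and -0.45 in the 4 replicates in the same order. Over all genes the same window had means of 0.08, 0.05, -0.06 and -0.10, and ZNF genes on other chromosomes had means of 0.19, 0.13, 0.07 and 0.01. Beyond 250 and up to 800 bp downstream the ZNF probes had means of -0.68, -0.69, -0.59 and -0.54. All genes had -0.16, -0.21, -0.28 and -0.33 there. At the basal level the ZNF probes, like those of all genes, thus read higher at the start than downstream of it.

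The SMAD3 over mock ratio was alike between replicates of a condition and less alike between conditions. Over the 144 ZNF promoters, the ratios of the basal replicates correlated with r = 0.98 and those of the TGFβ1 replicates with r = 0.94, whereas the means of both conditions correlated with r = 0.23. Over all genes the values were 0.95, 0.95 and 0.28. The single channels differed less, with r = 0.84 between the condition means of the SMAD3 signal and r = 0.59 for the mock signal over the ZNF promoters, and 0.89 and 0.79 over all genes. These correlations run across genes, which are not independent replicates, and they describe these libraries only. The SD between replicates had a median of 0.09 for the basal and 0.11 for the TGFβ1 group. The labels call the replicates biological. If they share a step of preparation, the p-values below measure only the spread between these samples.

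**Figure D1:**
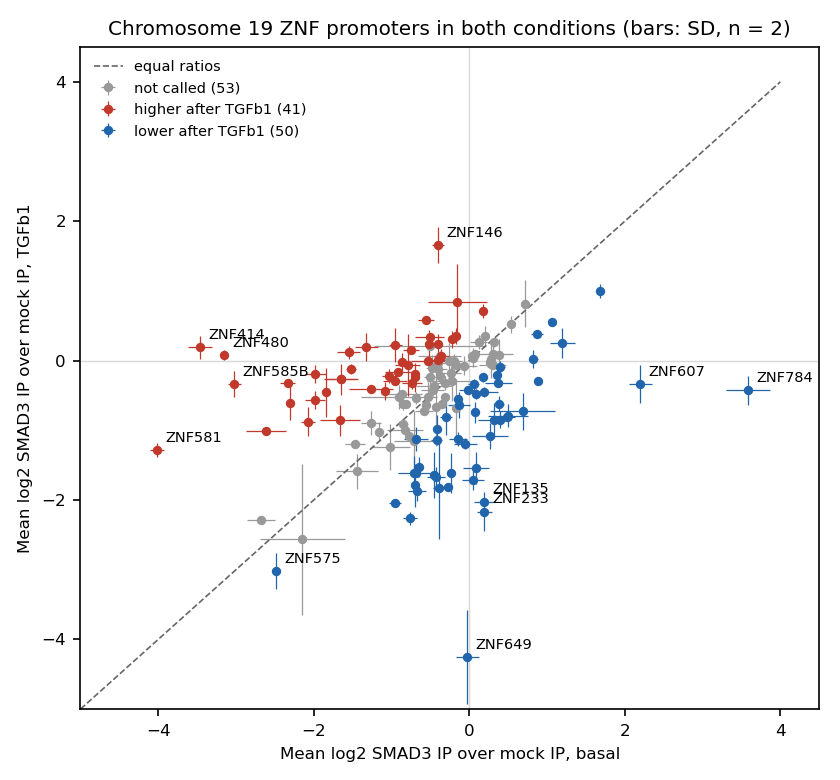
Mean SMAD3 IP over mock IP ratio (log2) of each of the 144 tested ZNF promoters, basal on the horizontal and TGFβ1 on the vertical axis, with bars for the SD of 2 replicates and colours for the result of the limma test. ZNF784 and ZNF607 stand to the right, ZNF146 at the top, ZNF649 at the bottom, and ZNF581, ZNF414 and ZNF480 to the left.

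The first question was which of these promoters were occupied by SMAD3 in each condition. A gene was called bound when a peak of the shape expected from fragments of 200 to 700 bp fitted its probes at p under 0.01 in each replicate, and its height was over 1.5-fold. Of the 176 ZNF genes with at least 4 probes, 4 were bound in the basal group and 1 in the TGFβ1 group. Over all 16876 genes, the shares bound were 3.32% and 2.68%, so the ZNF shares of 2.27% and 0.568% lay below the background. The same rule applied to the opposite direction, mock over SMAD3, called 18 ZNF genes at the basal level and 19 after TGFβ1, which is 10.2% and 10.8%, against backgrounds of 9.77% and 9.37%. Of 8662 genes on slide 2, 354 and 231 were bound, and 1119 and 877 had a mock over SMAD3 peak. At the basal level the ZNF share of such mock peaks lay below that of its slide. Peaks of mock over SMAD3 were more numerous than peaks of SMAD3 over mock, here as over all genes. When the p-values were taken from the sign-reversed ratios in place of shuffled ones, no ZNF gene was bound in either condition. The share over all genes with this rule is not given here, so that count is no result about the ZNF genes in particular.

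ZNF784 carried the clearest basal signal and was the only ZNF gene still bound at p under 0.001. At the probe 62 bp downstream of its start the basal replicates read 7.12 and 6.83 and the TGFβ1 replicates -0.79 and -0.41. The neighbours at positions -36 and 187 relative to the start read 5.83 and 5.34, and 5.91 and 5.31, at the basal level. At 550 bp downstream the basal ratio was 0.05 and -0.64, so the signal ended between these positions. All 3 probes of the peak were well above background in both channels on every array. The mock signal of the promoter was alike in both conditions, with a mean of 2.86 and 2.88 on the centred log2 scale, and the SMAD3 signal fell from 7.08 to 3.15. The fitted basal height was 128-fold, and it was 53.8-fold with fragments of up to 1000 bp and 76.1-fold with a normexp background correction.

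ZNF607 had a broad basal signal from position -194 to position 756 bp relative to the start. At position -194 the basal replicates read 4.60 and 4.92 and the TGFβ1 replicates -0.94 and -0.33, and the ratio at position 176 was 3.82 and 3.75 and then -1.54 and -1.03. The groups did not overlap at either probe. Both channels were high here at the basal level and lower after TGFβ1. The mean mock signal went from 3.85 to 0.56 and the SMAD3 signal from 6.67 to 0.92. The fitted basal height was 32-fold, and 19-fold with fragments of up to 1000 bp.

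ZNF580, whose product lacks a KRAB domain, had its basal signal downstream of the start. The probe 396 bp downstream read 7.32 and 7.29 at the basal level and 0.54 and 0.08 after TGFβ1, and the probe 257 bp downstream read 4.65 and 4.38 and then -2.43 and -1.94. Its promoter mean was 0.89 and 0.89 at the basal level and -0.29 and -0.30 after TGFβ1. The fitted height was 26.9-fold, and 16.0-fold with fragments of up to 1000 bp. With probes well above background alone, ZNF580 and ZNF653 were no longer bound.

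ZNF653 encodes a zinc finger protein and was bound through a single probe 1236 bp downstream, outside the promoter window, with ratios of 7.81 and 7.83 at the basal level and -0.35 and -0.06 after TGFβ1. No probe lay within 250 bp of the fitted centre, so the fitted height of 3444-fold is an extrapolation and not a measured level. Inside the window its ratios were 0.34 and 0.29 against 0.31 and 0.21, a change of -0.05 ± 0.13 (SE) with an adjusted p of 0.777 in limma.

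ZNF146, which encodes a protein made almost wholly of zinc fingers, was the one gene of the set bound after TGFβ1. The probe 756 bp downstream of its start read 0.45 and -0.82 at the basal level and 11.50 and 8.49 after TGFβ1, and the probe 611 bp downstream read -0.33 and 0.48 and then 6.85 and 6.21. These were the last probes on that side, so the downstream edge of the signal was not seen. The SMAD3 signal at 756 bp was -0.03 and -0.63 at the basal level and 11.54 and 12.41 after TGFβ1. Each channel of both probes was well above background on 1 of 2 arrays at the basal level and on both after TGFβ1, so the basal ratio rests on dim signals. The fitted height was 45.3-fold, and 22.6-fold with normexp or with fragments of up to 1000 bp. With probes well above background alone, ZNF146 had too few probes for a fit. With fragments of up to 1000 bp, ZNF415 was bound as well. ZNF415 was named after its values were seen.

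**Figure D2:**
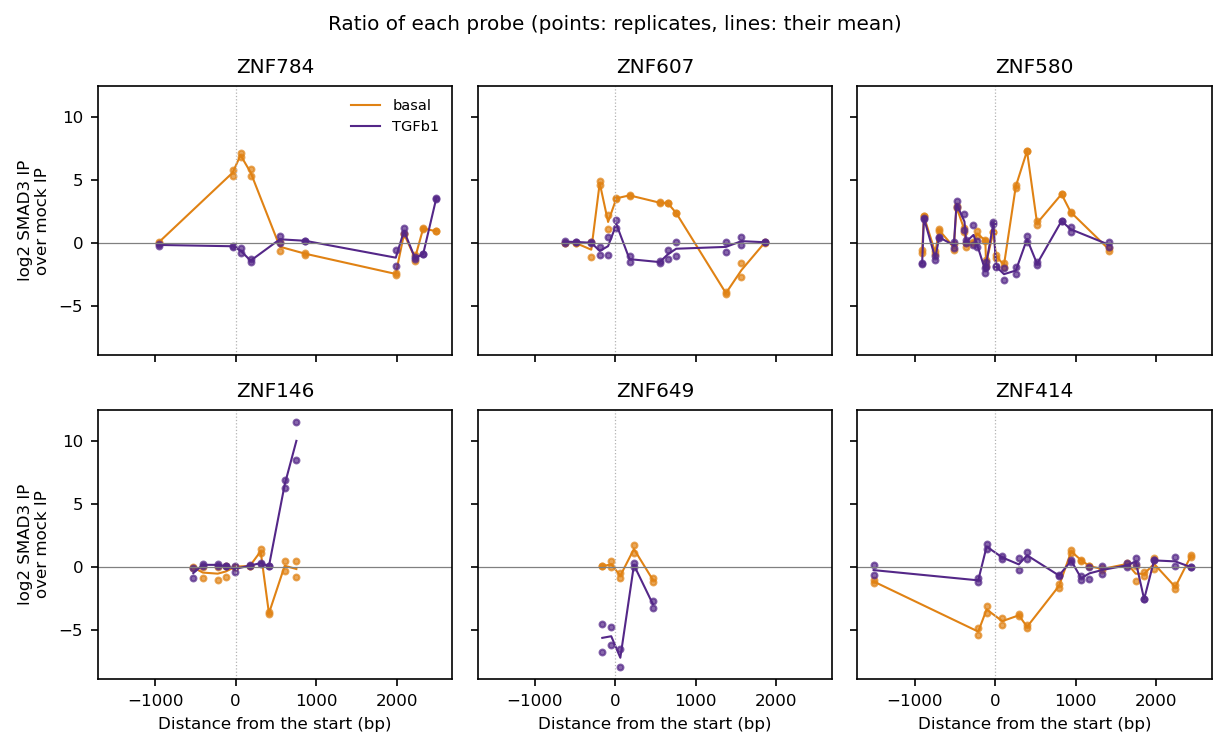
SMAD3 IP over mock IP ratio (log2) at each probe of 6 ZNF genes against the annotated distance from the start in bp, with points for replicates and lines for their mean. ZNF784, ZNF607 and ZNF580 show high basal probes, ZNF146 shows high probes after TGFβ1 at 611 and 756 bp, and ZNF649 and ZNF414 show low probes in 1 condition each.

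The promoters of ZNF784 and ZNF607, the genes with a basal peak at the start, and of ZNF414, the largest rise described next, are shown from RefSeq (GRCh38.p14), from 250 bases before to 50 bases after the start. Capitals mark CAGAC or its reverse complement GTCTG, and GGCGC or its reverse complement GCGCC, which can overlap. All 3 genes are on the minus strand. ZNF784 (chr19:55624517-55624816) holds 1 match of CAGAC or GTCTG and 3 of GGCGC or GCGCC, ZNF607 (chr19:37719139-37719438) holds none of either, and ZNF414 (chr19:8514118-8514417) holds 1 and 2.
ZNF784: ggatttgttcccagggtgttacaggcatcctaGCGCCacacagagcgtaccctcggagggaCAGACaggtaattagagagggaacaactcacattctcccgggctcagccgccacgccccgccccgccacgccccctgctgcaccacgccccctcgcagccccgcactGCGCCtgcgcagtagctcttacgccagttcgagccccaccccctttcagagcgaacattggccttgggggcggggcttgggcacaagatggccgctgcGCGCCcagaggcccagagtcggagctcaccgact
ZNF607: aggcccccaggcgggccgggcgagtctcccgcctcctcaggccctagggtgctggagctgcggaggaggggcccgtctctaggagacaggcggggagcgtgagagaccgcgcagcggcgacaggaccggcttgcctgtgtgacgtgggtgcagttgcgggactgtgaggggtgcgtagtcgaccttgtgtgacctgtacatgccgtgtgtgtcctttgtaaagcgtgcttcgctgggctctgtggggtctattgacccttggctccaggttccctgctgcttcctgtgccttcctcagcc
ZNF414: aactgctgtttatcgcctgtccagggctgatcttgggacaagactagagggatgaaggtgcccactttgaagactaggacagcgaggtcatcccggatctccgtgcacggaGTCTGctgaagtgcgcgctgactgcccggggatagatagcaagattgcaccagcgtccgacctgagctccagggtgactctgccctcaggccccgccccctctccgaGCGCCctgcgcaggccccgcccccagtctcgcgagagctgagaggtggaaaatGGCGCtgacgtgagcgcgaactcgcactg

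Across the ZNF genes these letters were common. Promoters of 159 of the 184 genes were matched, 155 by their symbol and 4 by an older symbol. CAGAC or GTCTG occurred in 43.4% of them and in 45.0% of all 27305 promoters of the same length. GGCGC or GCGCC occurred in 66.7%, against 48.3% of all promoters, 58.4% of other promoters on chromosome 19 and 79.0% of ZNF promoters on other chromosomes. GGCCG or CGGCC occurred in 59.1% against 48.7%, and the shorter GTCT or AGAC, which CAGAC and GTCTG contain in part, in 90.6% against 84.1%. The full palindrome GTCTAGAC occurred in none of the ZNF promoters and in 0.201% of all promoters. Among the matched ZNF promoters, CAGAC or GTCTG occurred in 12 of 35 that rose, 19 of 45 that fell and 21 of 45 that did not pass the test. A match of letters is not a binding site, and the window holds 300 bases only.

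The second question was which promoters changed their SMAD3 over mock ratio on stimulation. In limma with an adjusted p under 0.05 over all genes, 41 of the 144 ZNF promoters were higher and 50 were lower after TGFβ1. Of all 15961 genes tested, 20.4% were higher and 27.5% were lower, and the ZNF shares were 28.5% and 34.7%. All tested genes on the slide of the ZNF genes gave 21.8% and 30.8%. The other genes on chromosome 19 gave 23.9% and 36.5%, and ZNF genes on other chromosomes 20.3% and 21.8%. The median change over the ZNF genes was -0.01, against -0.06 over all genes, so it lay close to 0. The absolute change exceeded 1 on the log2 scale in 44 ZNF promoters, and the smallest that passed was 0.40. With a normexp background correction, which pulls dim signals together, 4 ZNF promoters were higher (ZNF146, ZNF222, ZNF414 and ZNF582) and 11 lower, and with the median of the probes in place of their mean 11 were higher and 17 lower. The ZNF shares with normexp were 2.78% and 7.64%, against 4.13% and 6.23% of all genes. Among the 8160 tested genes on the same slide as the ZNF genes, 126 were higher and 441 lower with normexp. The ZNF share of rises thus lay below that of all genes but above that of its own slide. With the median of the probes the ZNF shares were 7.64% and 11.8%, against 4.64% and 5.94% of all genes. On the same slide 513 of the 8160 tested genes were then higher and 635 lower.

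**Figure D3:**
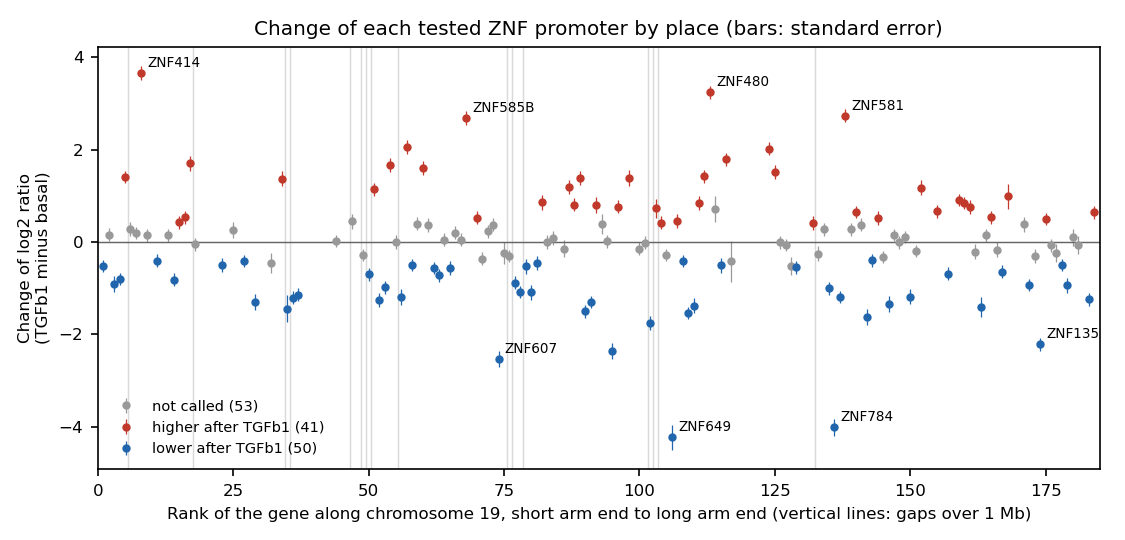
Change of the log2 ratio (TGFβ1 minus basal) of the 144 tested ZNF promoters against the rank of the gene along chromosome 19, with bars for the standard error and vertical lines at gaps over 1 Mb. Rises and falls lie side by side all along the chromosome.

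The largest falls were ZNF649, ZNF784, ZNF607, ZNF233, ZNF135 and ZNF114. ZNF649, a KRAB zinc finger gene, read -0.13 and 0.08 at the basal level and -4.73 and -3.78 after TGFβ1, a change of -4.23 ± 0.27 (SE, limma adjusted p = 6.11e-06). Its 5 probes in the window moved in the same direction, and the probe 62 bp downstream went from -0.51 and -0.92 to -7.96 and -6.51. The mock signal at that probe went from -0.54 and 0.18 to 8.03 and 7.90, while the SMAD3 signal went from -0.48 and -0.05 to 0.65 and 2.20. Over the whole promoter the mock signal rose by 4.72, with a limma adjusted p of 0.00833, and the SMAD3 signal did not pass the test.

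ZNF784 went from 3.79 and 3.39 to -0.57 and -0.28, a change of -4.01 ± 0.18 (limma adjusted p = 9.22e-07), with 4 of 5 probes lower. ZNF607 went from 2.30 and 2.10 to -0.53 and -0.14, a change of -2.54 ± 0.17 (limma adjusted p = 7.24e-06). These were the genes of the set with a fall of the ratio in which the SMAD3 signal itself fell past the threshold, with changes of -3.92 and -5.75.

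ZNF233 read 0.26 and 0.13 at the basal level and -2.37 and -1.97 after TGFβ1, over 4 probes of which 2 were well above background in some array. ZNF135 read 0.10 and 0.29 and then -2.03 and -2.01. ZNF114 read 0.15 and -0.05 and then -1.81 and -1.60. In all 3 the mock signal rose past the threshold, by 3.27, 2.09 and 2.00, and the SMAD3 signal did not pass the test. With normexp the falls of ZNF649 and ZNF135 no longer passed, at changes of -1.44 and -0.73. Within 250 bp of the joint peak centre ZNF135 had a change of 0.0016.

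The largest rises were ZNF414, ZNF480, ZNF581, ZNF585B, ZNF146 and ZNF160. ZNF414 read -3.57 and -3.35 at the basal level and 0.08 and 0.31 after TGFβ1, a change of 3.65 ± 0.15 (limma adjusted p = 7.71e-07), and all 7 of its probes were higher. The probe 89 bp downstream went from -4.61 and -4.04 to 0.64 and 0.82. There the mock signal went from 9.60 and 9.45 to 4.16 and 4.48 and the SMAD3 signal from 5.55 and 6.10 to 5.37 and 6.12. Over the whole promoter the mock signal fell by 4.45, and the change of the SMAD3 signal did not pass the test.

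ZNF480 read -3.19 and -3.13 and then 0.03 and 0.13, a change of 3.24 ± 0.13 with all 9 probes higher. ZNF581 was the lowest ZNF promoter at the basal level, at -4.07 and -3.95, and read -1.21 and -1.35 after TGFβ1. ZNF585B read -3.07 and -2.96 and then -0.21 and -0.47. ZNF160 read -2.27 and -2.40 and then -0.28 and -0.35. In ZNF480, ZNF581, ZNF585B and ZNF160 both signals fell past the threshold, with changes of -6.30, -4.94, -5.37 and -3.76 for the mock signal and of -2.99, -2.14, -2.62 and -1.67 for the SMAD3 signal. After TGFβ1 the ratios of ZNF581, ZNF585B and ZNF160 were still below the middle of the array, and that of ZNF480 was close to it. With normexp these 4 rises did not pass the test, at changes of 1.62, 1.48, 1.56 and 0.79. Within 250 bp of the joint peak centre the change of ZNF581 was 0.08 and did not pass either.

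ZNF146 read -0.45 and -0.34 at the basal level and 1.84 and 1.48 after TGFβ1, a change of 2.06 ± 0.16 (limma adjusted p = 1.72e-05). It was the highest ZNF promoter after TGFβ1 and the single gene of the set whose SMAD3 signal rose past the threshold, by 2.41 with a limma adjusted p of 0.0139. The change was 1.15 without its strongest probe and 0.16 for the median of its 10 probes, where it did not pass, so it rests on the 2 probes named above.

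**Figure D4:**
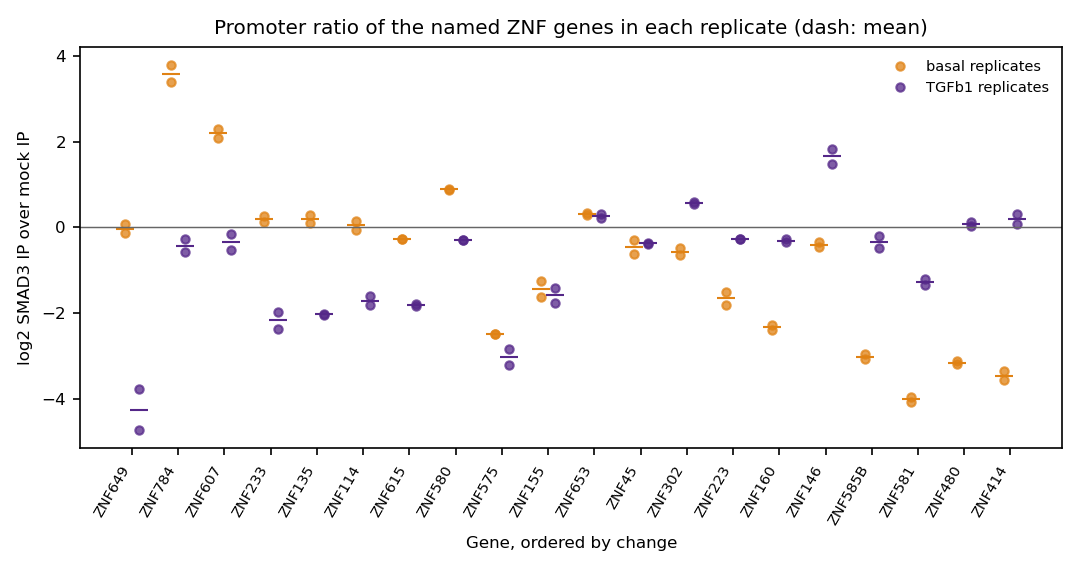
SMAD3 IP over mock IP ratio (log2) of 20 ZNF promoters in each of the 2 basal and 2 TGFβ1 replicates, ordered by the change, with dashes for the means. The genes at the left fell, those at the right rose, and the groups of ZNF155, ZNF653 and ZNF45 in the middle overlap.

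Both channels were then compared separately. Of the 144 ZNF genes, the mock IP signal was higher after TGFβ1 in 13 and lower in 33, against backgrounds of 6.4% and 7.55% of all genes. On the same slide the counts over 8160 genes were 619 and 1153, which is 7.59% and 14.1%. The SMAD3 IP signal was higher in 1, ZNF146, and lower in 8, against backgrounds of 0.783% and 1.61%. Slide 2 gave 62 and 241 of 8160 genes. The 8 were ZNF607, ZNF784, ZNF480, ZNF585B, ZNF566, ZNF581, ZNF160 and ZNF222. Among the 91 ZNF promoters whose ratio changed, the absolute change of the mock signal was larger than that of the SMAD3 signal in 71, or 78.0%, against 70.4% of the genes called over all genes. Of the 41 that rose, the mock signal was lower in 40 by value and the SMAD3 signal higher in 13, which is 97.6% and 31.7%, against 83.5% and 50.8% of all genes that rose. Of the 50 that fell, the mock signal was higher in 43 and the SMAD3 signal lower in 33, which is 86.0% and 66.0%, against 86.3% and 54.0% of all genes that fell. These single-channel counts rest on few libraries. With normexp, no ZNF gene passed in either channel, and no gene of the arrays did. Leaving out a replicate takes away the spread within its group, so those fits give effect sizes only. The median mock change of the ZNF genes was -0.20 without either basal replicate. It was -0.13 and -0.23 without TGFβ1 replicate 1 or 2. Over all genes these medians were -0.04 and 0.37 without basal replicate 1 or 2, and 0.20 and 0.16 without TGFβ1 replicate 1 or 2. With all replicates, 70 ZNF genes passed for the mock signal and 40 for the SMAD3 signal at an unadjusted limma p under 0.05. This is 48.6% and 27.8%, against 28.4% and 13.4% of all genes.

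**Figure D5:**
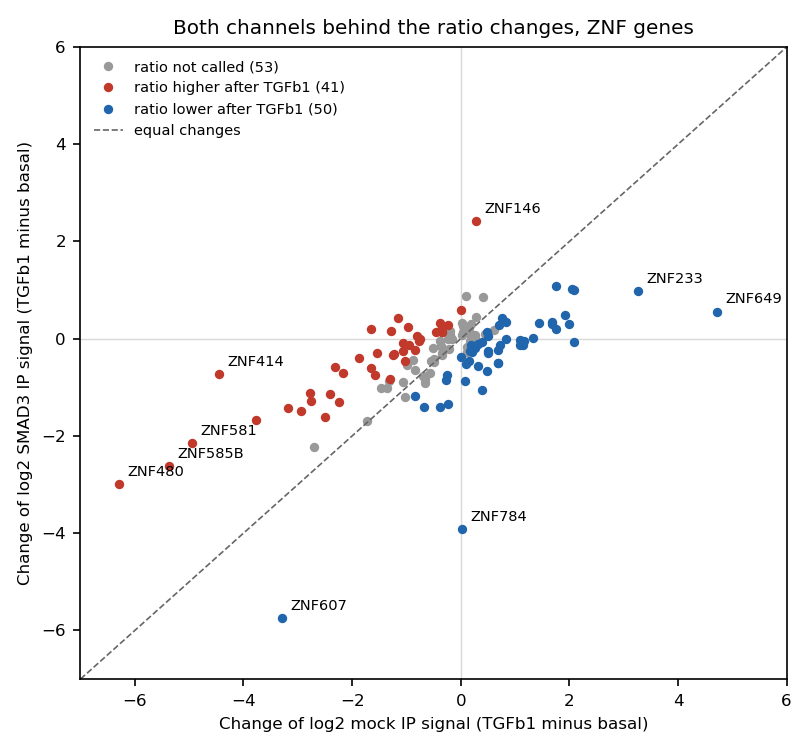
Change of the centred log2 mock IP signal (horizontal) and SMAD3 IP signal (vertical), TGFβ1 minus basal, for the 144 tested ZNF genes, with colours for the test of the ratio. ZNF414, ZNF581, ZNF585B and ZNF480 lie far to the left, ZNF649 and ZNF233 to the right, ZNF784 and ZNF607 low, and ZNF146 high.

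Along the chromosome the ZNF genes fell into 17 blocks with gaps over 1 Mb between them. The distal block of 52 genes from ZNF628 to ZNF446 had 45 tested promoters, 12 higher and 15 lower, or 26.7% and 33.3%. Over all genes of slide 2 the shares were 21.8% and 30.8%. The block of 29 genes from ZNF175 to ZNF331 had 9 higher and 6 lower of 21, the block of 23 from ZNF575 to ZNF342 had 7 and 6 of 20, and the block of 20 from ZNF565 to ZNF573 had 4 and 6 of 19. In percent these were 42.9% and 28.6%, 35.0% and 30.0%, and 21.1% and 31.6%, over few genes each. Median changes of these 4 blocks lay between -0.08 and 0.05. The ratios of neighbours could move in opposite ways. ZNF784, ZNF580 and ZNF581 follow each other in the distal block, and their ratios changed by -4.01, -1.18 and 2.73. The change of ZNF580 did not pass with normexp or with the median of the probes. That of ZNF581 did not pass with normexp or around the joint peak centre. The SMAD3 signal fell in both ZNF784 and ZNF581, and the ratio of ZNF581 rose because its mock signal fell further.

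Groups of related genes were read by the same counts. The list for the ZNF91 family, a young group of KRAB genes in and around 19p12 that are nearly alike in sequence, was thinly covered. Of 31 genes listed, 4 had at least 4 probes in the window. Of these, ZNF101 and ZNF14 fell, with changes of -1.21 and -1.14. ZNF43 and ZNF681, which lie further along the chromosome, changed by 0.03 and 0.45 and did not pass. None of the 4 window probes of ZNF43 was well above background in either channel on any array. Its value of 0.03 thus rests on dark probes and does not show an unchanged promoter. ZNF101 shares 10 of its 14 probes with ATP13A1, and ZNF681 shares 8 with LOC388524. The ZNF45 family at 19q13.31 had 16 tested promoters of 21 listed, of which 7 rose and 3 fell, or 43.8% and 18.8%, with a median change of 0.24. ZNF285A read -1.84 and -1.85 at the basal level and -0.70 and -0.21 after TGFβ1, a rise of 1.39 and the largest in this family, while ZNF224, ZNF225 and ZNF233 fell, with changes of -1.50, -1.30 and -2.36. With normexp, ZNF222 rose and ZNF224 and ZNF233 fell in this family, and with the median of the probes none rose and ZNF233 fell. Of the ZNF genes without a KRAB domain, 17 were tested. ZNF146, ZNF414, ZNF444 and ZNF581 rose and 8 fell, or 23.5% and 47.1%, against 20.4% and 27.5% of all genes. Of these 17, ZNF580, ZNF653 and ZNF784 were bound at the basal level and ZNF146 after TGFβ1, against 3.32% and 2.68% of all genes. A mock over SMAD3 peak was called in 6 at the basal level and 3 after TGFβ1, against 9.77% and 9.37% of all genes. No test was made of these counts, and the list was edited after values were seen. Its median change was -0.26, and -0.02 with loess scaling within arrays. The median changes are set beside -0.06 over all genes.

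Of the 7 ZNF genes in the supplementary gene lists of the study, which were chosen on these cells and are no independent evidence of direction, 3 rose, 2 fell and 2 did not pass. Those lists name genes that the study called bound by SMAD3. The peak rule used here called 0 of the 7 bound at the basal level and 1, ZNF146, after TGFβ1. The study used its own program and describes more array replicates, so the calls are not like for like. ZNF302 read -0.49 and -0.63 and then 0.60 and 0.56, a change of 1.14 ± 0.14 (limma adjusted p = 0.000197). ZNF223 read -1.5 and -1.80 and then -0.27 and -0.26, a change of 1.38 ± 0.15, and ZNF146 is described above. Within 250 bp of the joint peak centre the changes of ZNF302 and ZNF223 were 0.08 and 0.03, and with the median of the probes they were 0.11 and 1.12, and neither passed in either setting. ZNF615 went from -0.28 and -0.28 to -1.78 and -1.84, a change of -1.53 ± 0.13 (limma adjusted p = 3.14e-05), and -0.98 with the median, where it did not pass. ZNF575 was low in both conditions, at -2.49 and -2.48 and then -3.20 and -2.83. Its change was -0.53, and -0.34 without TGFβ1 replicate 1, and it did not pass with the median of the probes. Together with ZNF227 and ZNF497, ZNF575 had a mock over SMAD3 peak in both conditions. ZNF45 read -0.30 and -0.62 and then -0.37 and -0.37, and ZNF155 read -1.63 and -1.25 and then -1.77 and -1.41. In both genes the groups overlapped. With normexp, ZNF146 alone of these 7 passed the test.

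The genes of the corepressor machinery that KRAB domains recruit lie mostly on other chromosomes. Of 14 tested, 3 were higher and 5 lower, which is 21.4% and 35.7%, against 20.4% and 27.5% of all genes. The cofactors at the head of the pathway did not pass, with TRIM28 at 0.04 ± 0.02 (SD, n = 2) and then -0.23 ± 0.18, and SETDB1 at -0.16 ± 0.09 and then 0.05 ± 0.00. The HP1 genes differed. CBX1 (HP1β) fell by 1.84 on the log2 scale, CBX5 (HP1α) rose by 0.75, and CBX3 (HP1γ) changed by 0.40 without passing. The chromatin remodeller gene CHD3 fell by 2.22 and CHD4 by 1.07, the DNA methyltransferase genes DNMT3B by 1.03 and DNMT3A by 0.54, and the deacetylase gene HDAC1 rose by 0.43 and UHRF1 by 0.90. The calls of HDAC1 and DNMT3A were close to the threshold, with limma adjusted p of 0.0333 and 0.0400. Without single replicates the change of HDAC1 lay between 0.36 and 0.49, and that of DNMT3A between -0.77 and -0.31. Around the joint peak centre CBX5 and UHRF1 changed by 0.13 and 0.03 and did not pass. In the single channels, the mock signal of CBX5 and UHRF1 fell by 1.47 and 1.12 and that of CHD4 rose by 1.08, each past the threshold, while their SMAD3 signals changed by -0.65, -0.15 and 0.08 without passing. For CHD3 it was the SMAD3 signal that fell past the threshold, by 2.27. CHD3 was bound at the basal level, with a promoter mean of 1.70 ± 0.09 against -0.51 ± 0.01 after TGFβ1. ATF7IP, a partner of SETDB1, was bound after TGFβ1, but its promoter ratio did not pass for a change. It read 0.37 and 0.20 at the basal level and 0.05 and 0.28 after TGFβ1, a change of -0.12 (limma adjusted p = 0.556). With normexp the change of CBX1 passed and those of the other 7 did not. With the median of the probes the changes of CBX1, CBX5, CHD4 and DNMT3B passed. Those of CHD3, HDAC1, DNMT3A and UHRF1 did not, and that of CHD3 was -0.49.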

How the data were processed

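Conditions and replicates came from the labels. Per the file headers, the authors deposited the intensity of every spot and channel from Agilent Feature Extraction 9.5.1.1, with a background taken from negative controls and a spatial trend, a multiplicative trend removed, a linear factor per dye, surrogates for dim signals and no normalization between arrays. The deposited series matrix holds the log2 ratio of the same intensities, and it differed by at most 3.13e-06. No genome build is named, so distances to the start are given in place of coordinates. Control spots and 1404 outlier probes of 474392 were left out. Between 41.7% and 54.4% of the probes of an array were well above background for the SMAD3 IP and between 47.0% and 60.8% for the mock IP. Precision is limited by the signal over background and by how few arrays there are.

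The log2 ratio and each channel's log2 signal were centred on the array median. Levels set between slides are relative to each slide's own median. Peaks were fitted per gene with numba 0.67.0 in Python 3.11.15 and compared with 10 shuffles of the log2 ratios between probes. Changes were tested with lmFit and eBayes of limma 3.58.1 in R 4.3.3 on the mean of at least 4 probes per gene, with Benjamini-Hochberg adjustment at 0.05 over all genes. Both were run on simulated data, the peak fit with shuffled ratios scaled below the noise of the arrays. That run cannot give error rates of the bound calls at the real noise. The members and lists were chosen with earlier results of these data known. Named genes were the bound genes, the 6 largest rises and falls whose groups did not overlap, the 7 genes of the study's lists, the extremes of each condition and the corepressor genes that passed. ZNF446 was taken off the list without a KRAB domain after its values were seen, because a RefSeq synonym marks that domain. Alternatives were another background correction, loess, probe filters and windows, a replicate block and leaving out each replicate.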

Additional observations from a re-analysis of the deposited data

How the results depend on the processing

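The counts of ZNF promoters with a higher or lower ratio after TGFβ1 were 41 and 50. They stayed within 1.5 times with loess, the series matrix, all probes of a gene, a minimum of 1 probe and separate fits per slide. Fits without a single replicate give effect sizes only. In them the median change of the ZNF genes lay between -0.059 and 0.0017. The counts went to 4 and 11 with normexp and to 11 and 17 with the median of the probes. In an alternative chosen after seeing the data, without the probe of each gene with the largest change, they went to 24 and 29. The count of rises was 26 with probes well above background, where 105 ZNF genes were left, and 20 within 250 bp of the joint peak centre, where 108 were left.

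The count for the mock signal, 46, went to 0 with normexp, 27 with probes well above background, 4 around the peak centre, 30 with the median, 82 with separate fits per slide and from 0 to 83 without single replicates. The count for the SMAD3 signal, 9, went to 0 with normexp, 2 with all probes, 26 around the peak centre, 22 with separate fits and 0 without any single replicate. The bound genes at the basal level, 4, went to 2 with probes well above background, 1 at p under 0.001 and 0 with p-values from sign-reversed ratios, and stayed at 4 without either replicate. After TGFβ1 the 1 bound gene, ZNF146, could not be fitted with probes well above background, which left 0, and the count was 0 at p under 0.001 and with sign-reversed ratios. It went to 2 with longer fragments, and to 1 and 2 without single replicates. The causes were not tested.

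Replicate numbers were not taken as pairs in the main test. Over genes, the deviations of same-numbered samples correlated with 0.11 for the ratio, -0.32 for the SMAD3 signal and 0.13 for the mock signal. These values cannot settle whether samples of the 2 groups shared a batch. With a replicate block, 45 ZNF promoters rose and 52 fell, 21 passed for the mock signal and 11 for the SMAD3 signal. With the crossed pairing, added after seeing the data, 15 passed for the SMAD3 signal. Some changes of named genes turned sign. ZNF653 read 0.17 with loess and 1.39 without its most changed probe. ZNF45 read -0.0588 with the median, from -0.0733 to 0.247 without single replicates (the first without basal replicate 2) and -0.289 without that probe. ZNF155 read 0.0205 with normexp, 0.0571 around the peak centre, 0.932 with the median, from -0.339 to 0.0437 without single replicates (above 0 without basal replicate 2 or TGFβ1 replicate 1) and 0.148 without that probe. Around the peak centre ZNF135 read 0.0016 and ZNF575 0.197, CBX5 read -0.0362 with all probes and HDAC1 -0.0174 without its most changed probe. A correction for GC content was not run, because the files hold no probe sequences.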
